A study of Mus musculus with 6 samples.

Results

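Cytochrome P450 enzymes of families 1 to 4 are heme proteins of the endoplasmic reticulum that oxidise drugs, pollutants, steroids and fatty acids. Each reaction takes electrons from NADPH through P450 reductase, with cytochrome b5 as a helper. Many members are known as liver, gut or kidney enzymes, and several are induced through ligand-activated transcription factors, namely AHR for family 1, CAR and PXR for the Cyp2b, Cyp2c and Cyp3a genes, and PPARα for Cyp4a. The genes described here were all those whose symbol reads Cyp, then a digit from 1 to 4, then a letter, and that had a probe set naming no other gene. There were 70 of them among 19938 genes measured, 3 in family 1, 45 in family 2, 6 in family 3 and 16 in family 4. They fell into 21 subfamilies, 12 of which held a single gene, and each of the 70 had 1 probe set. The gene table calls 3 of them transcribed pseudogenes (Cyp2d13, Cyp2d37-ps and Cyp4f41-ps).

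The vitamin C group consisted of 3 arrays of mouse embryonic stem (ES) cells given 200 μg/ml of L-ascorbic acid 2-phosphate, a stable ester of vitamin C, over 72 hours. The untreated group consisted of 3 arrays of the same cells without it. Treatment began a day after seeding, with fresh medium every day in both groups, and column-purified RNA was amplified with a whole-transcriptome kit before hybridisation. All cells were Oct4-GiP ES cells, named as the labels name them, and all grew on gelatin in N2B27 with LIF at 1000 U/ml, the MEK inhibitor PD0325901 at 1 μM and the GSK3β inhibitor CHIR99021 at 3 μM, a mixture that holds ES cells in a naive state. The design text calls the 3 samples of each group biological triplicates, of 1 cell line. Values are log2 signals from Affymetrix arrays, so a difference of 1 is 2-fold. A level says how bright a probe set was and is not comparable between genes.

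Arrays of the same group correlated at 0.995 to 0.996 and arrays of different groups at 0.989 to 0.990 over all genes. Array medians were 5.56 to 5.60 in vitamin C arrays and 5.52 to 5.55 in untreated arrays. Lower quartiles were 4.027 to 4.049 and 3.992 to 3.998. For both measures every vitamin C array thus lay above every untreated array, by small amounts, whereas upper quartiles overlapped. All 20 ES cell markers listed had means above the median of all probe sets (5.55). Pou5f1 had means of 11.14 in vitamin C and 11.26 in untreated cells, without a call. Nanog rose by 0.29, and Sox2 differed by 0.13 without a call. The vitamin C arrays lay wholly above the untreated arrays for 12 of the 20 markers and wholly below for 3. Of these 20, 8 rose, none fell and 12 had no call, and their mean signal was 10.15 to 10.19 in vitamin C arrays against 10.04 to 10.06 in untreated arrays. Of 26 hepatocyte markers 23 were measured, and Alb, the liver's albumin gene, had means of 3.43 in vitamin C and 3.52 in untreated cells, under the lower quartile of all probe sets (4.01). Of those 23, 3 lay under that quartile, 16 between it and the median and 4 above the median. Among them 2 rose, 2 fell and 19 did not pass, so that 17.4% were called where 13.2% of all genes were. Ahsg, a serum protein gene of liver, had means of 6.55 in vitamin C and 5.78 in untreated cells. It rose by 0.77 ± 0.12 (SE, limma adjusted p = 0.00855). The other called hepatocyte markers were Cps1, which rose by 0.45, and F2 and Trf, which fell by 0.52 and 0.31. Of 19 fibroblast markers measured, 8 were called higher, 1 lower and 10 not, a called share of 47.4%. Their mean signal per array was 6.16 to 6.21 in vitamin C against 5.73 to 5.81 in untreated cells, with 3 of the 19 under the lower quartile. For primitive endoderm the count was 6 higher, 1 lower and 13 without a call among 20 markers, a called share of 35.0%. Their mean signal was 6.41 in each vitamin C array against 6.20 to 6.28 in untreated cells. The part of these markers in the P450 differences below was not tested, and in bulk RNA more cells of a type and more RNA per cell cannot be told apart.

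Vitamin C was followed by a change in 6 of the 70 P450 genes. Cyp2b23, Cyp2c55, Cyp1b1, Cyp4a12b and Cyp2b9 rose, and Cyp2s1 fell. The other 64 did not pass the test, with differences between -0.32 and 0.34. Calls were made with limma at a Benjamini-Hochberg adjusted p under 0.05 over all 19938 genes, and the 6 members called are 8.57% of the 70, where 13.2% of all genes were called. That gap depended on the setting. Without moderation of the spread it remained, at 4.29% of members and 7.75% of all genes. It also remained with arrays centred on their medians (7.14% and 13.5%) and with array weights (8.57% and 13.1%). The trended and robust spread model and the mean of a gene's probe sets kept it as well. With dim genes left out 18.8% of members and 18.6% of all genes were called. With 1 array left out the shares were 7.14% to 8.57% of members and 7.44% to 8.63% of all genes. With all probe sets tested 7.14% of members were called, and 5.95% of probe sets, a share that includes probe sets naming no gene. By direction, 5 members were higher where 5.75% of all genes were called higher, and 1 was lower where 7.40% were called lower. Those shares stand for 1147 genes higher and 1476 lower, a split that became 866 higher and 1830 lower with arrays centred on their medians. The 3 vitamin C arrays lay wholly above the 3 untreated arrays for 11 members, where 16.8% of all genes did so, and wholly below for 3, where 18.2% did so. Together these were 14 of 70 or 20.0%, against 35.0% of all genes without overlap. Beside the 6 called genes these were Cyp2b13, Cyp2d40, Cyp2j11, Cyp2u1, Cyp4b1 and Cyp4f40 above and Cyp2ab1 and Cyp2e1 below. At least 2-fold differences were found for 2 members, where 0.687% of all genes differed that much. The median difference of the members was 0.06, against 0.01 over all genes. By level, the all-gene median was 0.02 under the lower quartile of all probe sets, 0.07 between it and the median, and -0.02 from the median up. In these classes 76, 251 and 820 genes were called higher, and 28, 78 and 1370 lower. Of the members, 38, 25 and 7 belonged to these classes.

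**Figure D1:**
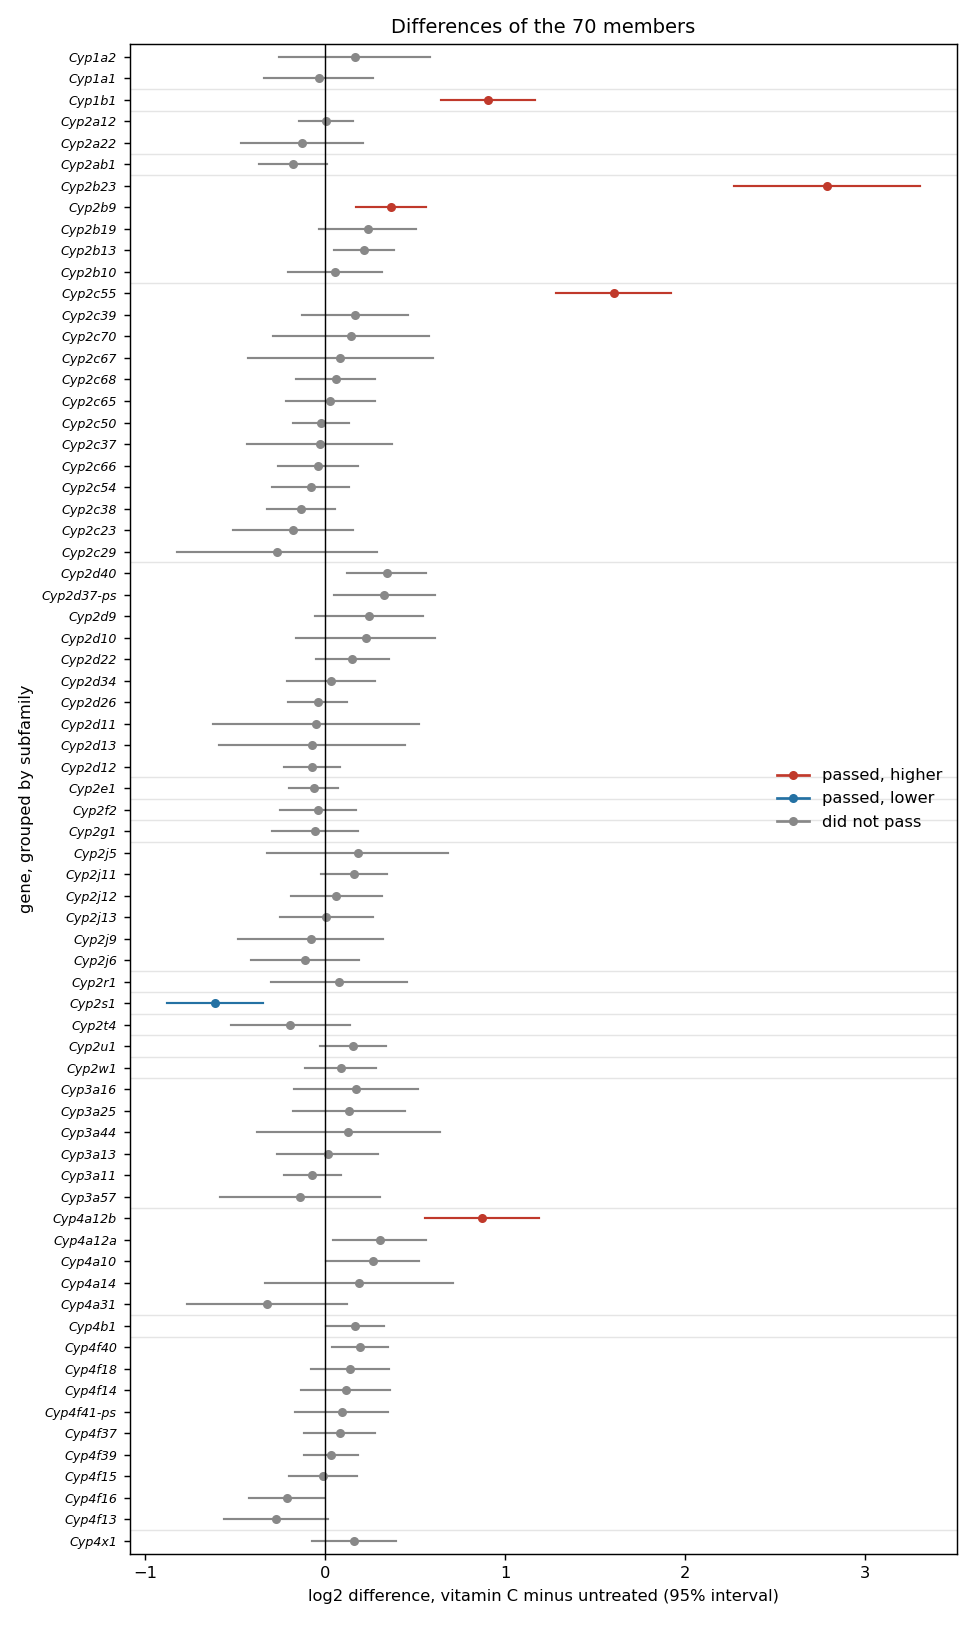
Log2 difference, vitamin C minus untreated (x axis), with its 95% confidence interval for each of the 70 genes, grouped by subfamily from top to bottom. Cyp2b23 at 2.79 and Cyp2c55 at 1.60 stand far to the right, Cyp2s1 at -0.61 is the single gene that passed to the left, and most intervals cross 0.

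Most of these genes gave weak signals. Means over the 6 arrays ran from 1.96 (Cyp3a11) to 7.38 (Cyp4f13), with a median of 3.93, against a median of 5.98 for all genes. Of the 70, 38 lay under the lower quartile of all probe sets, 25 between it and the median and 7 above the median. Called members numbered 1, 3 and 2 in these classes, where 3.14%, 6.38% and 19.1% of all genes of the same classes were called. Whether a dim gene was above background is not known from these values, and on arrays the folds of weak probe sets tend to be understated. For all 64 members that did not pass, the 95% interval of the difference stayed within 2-fold either way, and for 53 of them within 1.5-fold.

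**Figure D2:**
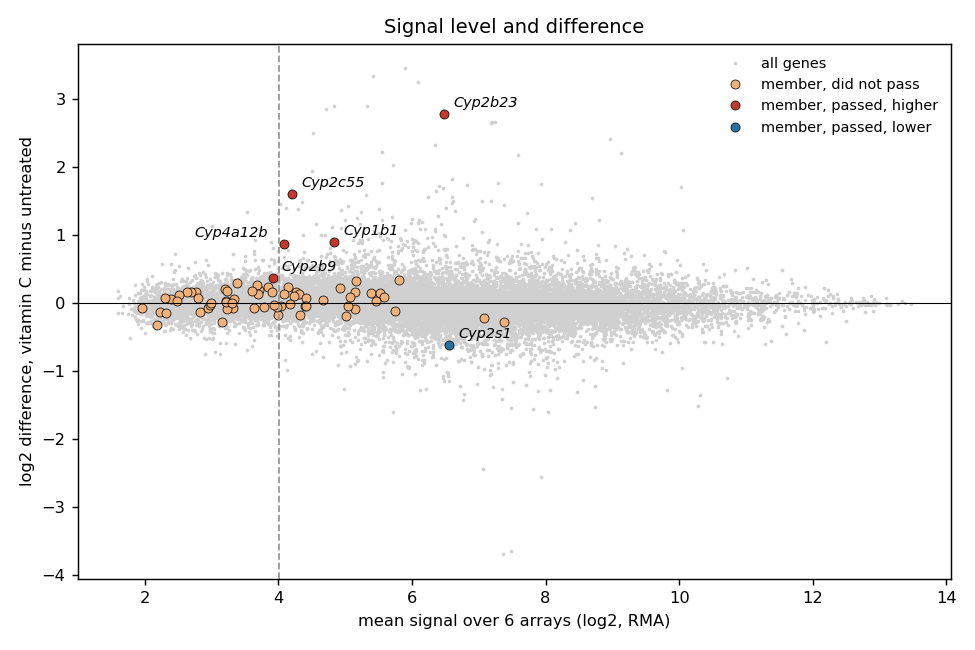
Mean log2 signal over the 6 arrays (x axis) against the log2 difference, vitamin C minus untreated (y axis), for all 19938 genes (grey) and the 70 P450 genes (outlined). The dashed line is the lower quartile of all probe sets (4.01), with 38 members to its left, and Cyp2b23 has the highest difference of the 70.

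The Cyp2b subfamily held the largest change. Cyp2b enzymes are known in mouse liver as the classical targets of phenobarbital through CAR, with Cyp2b10 as the main inducible gene, and Cyp2b9 is known as a form found mainly in female liver. Upstream stretches of Cyp2b23, Cyp2b9 and Cyp2b10 are shown because these near relatives on the same chromosome had differences of 2.79, 0.36 and 0.05. They are RefSeq sequences of build GRCm38.p6, cut to the bases before the annotated gene, and capitals mark CpG, the dinucleotide that carries DNA methylation. Cyp2b23 is given for chr7:26686431-26686680 on the minus strand, Cyp2b9 for chr7:26173159-26173349 and Cyp2b10 for chr7:25897408-25897657, both on the plus strand.
Cyp2b23: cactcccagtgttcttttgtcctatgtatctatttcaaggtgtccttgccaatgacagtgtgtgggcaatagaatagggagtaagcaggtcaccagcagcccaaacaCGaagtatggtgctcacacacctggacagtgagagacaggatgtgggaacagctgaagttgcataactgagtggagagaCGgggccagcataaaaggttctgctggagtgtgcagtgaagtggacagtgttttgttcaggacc
Cyp2b9: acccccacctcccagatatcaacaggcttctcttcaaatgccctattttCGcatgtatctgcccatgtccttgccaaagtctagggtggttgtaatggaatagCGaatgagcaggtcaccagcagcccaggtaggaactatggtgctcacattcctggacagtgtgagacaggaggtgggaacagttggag
Cyp2b10: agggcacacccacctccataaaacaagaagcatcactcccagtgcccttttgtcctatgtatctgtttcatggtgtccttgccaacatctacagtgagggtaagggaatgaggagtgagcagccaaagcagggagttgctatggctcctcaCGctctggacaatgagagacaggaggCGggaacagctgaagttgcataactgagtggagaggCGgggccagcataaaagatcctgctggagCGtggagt
There are 2 CpG in the stretch of Cyp2b23, 2 in that of Cyp2b9 and 4 in that of Cyp2b10. Over the whole 300-base windows, from 250 bases before a start to 50 after it, Cyp2b23 was 86.9% identical to Cyp2b10 and 83.1% to Cyp2b9 at the aligned positions. Those positions numbered 259 and 267, and 82 and 66 gap bases were left out of the shares.

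Cyp2b23 had signals of 7.75, 8.0 and 7.89 in the vitamin C arrays, against 4.81, 5.66 and 4.80 in the untreated arrays. All vitamin C arrays were more than 2 log2 units above the highest untreated one, and untreated replicate 2 stood above its fellows. The means were 7.88 ± 0.13 and 5.09 ± 0.49 (SD, n = 3 each), a difference of 2.79 ± 0.22 (SE, limma adjusted p = 0.000620) or 6.90-fold, which ranked 8 among the rises of all genes. With any 1 array left out the difference stayed between 2.64 and 3.07 and the call held. Cyp2b9 had 3.98, 4.22 and 4.09 in vitamin C and 3.76, 3.80 and 3.64 in untreated cells. The groups did not overlap, but the values are dim, and the difference of 0.36 ± 0.08 (SE, limma adjusted p = 0.0291) is 1.29-fold. That call was lost without vitamin C replicate 2 (adjusted p = 0.0786) or 3 (0.0790) and without untreated replicate 1 (0.0706), 2 (0.0557) or 3 (0.0903), with arrays centred on their median (0.0533), with all probe sets tested (0.0707) and without moderation (0.0900). Cyp2b13 differed by 0.21 ± 0.07 (SE, limma adjusted p = 0.0946) and Cyp2b19 by 0.24 ± 0.11 (SE, limma adjusted p = 0.223). Cyp2b10 had 4.84, 4.51 and 4.74 in vitamin C and 4.47, 4.69 and 4.77 in untreated cells, values that overlapped. Its difference was 0.05 with a 95% interval from -0.20 to 0.31. All 5 Cyp2b differences were above 0, where 52.8% of all genes were, and their median was 0.24. Of the 5, 2 were called, where 13.2% of all genes were. The difference of Cyp2b10 became -0.02 without vitamin C replicate 1 and -0.03 without untreated replicate 1. Cross-hybridisation among such close copies was not tested.

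**Figure D3:**
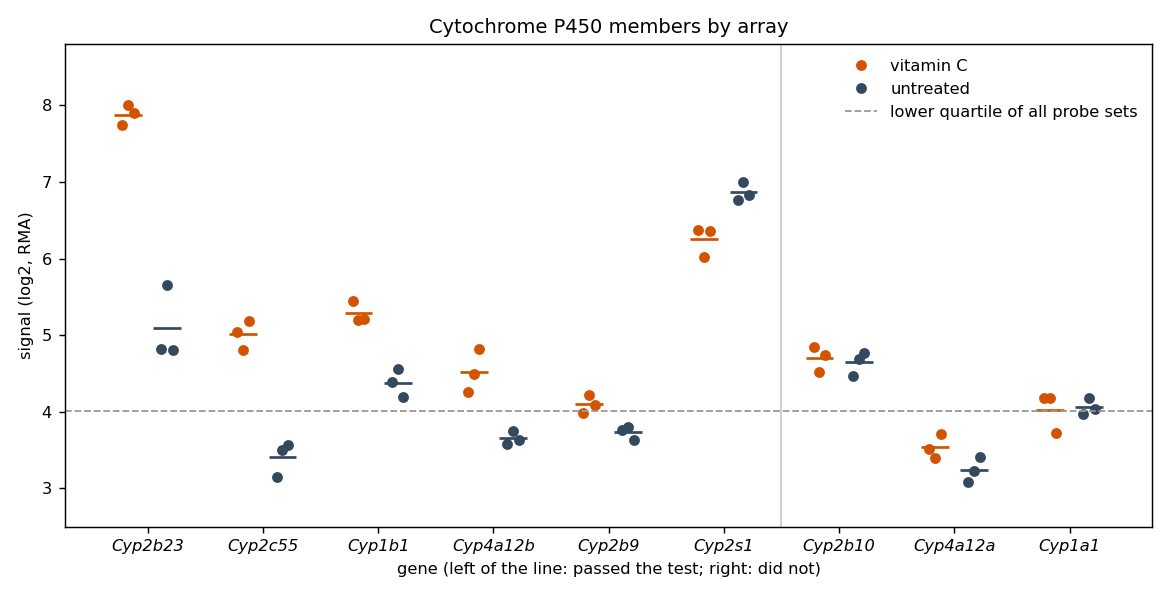
Log2 signal (y axis) in each vitamin C array (orange, left of each pair) and each untreated array (dark, right of each pair) for the 6 genes that passed the test and for Cyp2b10, Cyp4a12a and Cyp1a1, which did not. Bars are group means and the dashed line is the lower quartile of all probe sets (4.01). The groups are apart for the 6 genes on the left and overlap for the 3 on the right.

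Cyp2c55, known in the mouse as an arachidonic acid hydroxylase of the colon and of induced liver, was the other gene with a difference above 2-fold. Its upstream stretch at chr19:39006769-39006939 (plus strand, GRCm38.p6, RefSeq) is shown because it holds 0 CpG, so no letters are in capitals.
Cyp2c55: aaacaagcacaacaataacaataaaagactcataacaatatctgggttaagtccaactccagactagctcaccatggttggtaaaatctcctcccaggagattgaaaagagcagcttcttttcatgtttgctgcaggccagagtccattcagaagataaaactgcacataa
The vitamin C arrays read 5.04, 4.80 and 5.18, against 3.15, 3.51 and 3.56 in the untreated arrays. Every untreated value was under the lower quartile of all probe sets and every vitamin C value above it. The difference was 1.60 ± 0.14 (SE, limma adjusted p = 0.000769), 3.04-fold, and it rested in part on dim untreated values. With 1 array left out it stayed between 1.47 and 1.71. None of the other 12 Cyp2c genes passed. Their differences ran from -0.27 (Cyp2c29) to 0.16 (Cyp2c39), and the subfamily median was -0.02. Of the 13 Cyp2c genes 10 had means under the lower quartile.

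Cyp2s1 was the member that fell. It is known as a P450 of skin, lung and gut epithelia, and in the mouse as a gene induced by dioxin. The stretch upstream of Cyp2s1 at chr7:25816526-25816775 (minus strand, GRCm38.p6, RefSeq) is shown for its 15 CpG, in capitals, a density unlike that of Cyp2b23 or Cyp2c55.
Cyp2s1: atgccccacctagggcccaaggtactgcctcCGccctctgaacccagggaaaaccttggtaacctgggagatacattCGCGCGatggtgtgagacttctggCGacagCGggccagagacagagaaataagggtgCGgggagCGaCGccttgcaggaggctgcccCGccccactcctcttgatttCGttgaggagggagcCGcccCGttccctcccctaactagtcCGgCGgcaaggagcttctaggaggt
Signals were 6.37, 6.02 and 6.36 with vitamin C and 6.77, 7.0 and 6.83 without it. The groups did not overlap, and vitamin C replicate 2 was the lowest of the 6. Cyp2s1 fell by 0.61 ± 0.11 (SE, limma adjusted p = 0.0140), and untreated cells had 1.53 times the signal of vitamin C cells. The call was lost without moderation of the spread (adjusted p = 0.0824).

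The remaining family 2 genes did not pass. Closest was Cyp2d40 at 5.97, 5.80 and 6.15 in vitamin C and 5.58, 5.66 and 5.65 in untreated cells. Its arrays did not overlap, and the difference of 0.34 ± 0.09 (SE) had a limma adjusted p of 0.0552, which passed without vitamin C replicate 2 (0.0321), with a trended and robust spread model (0.0317) and with dim genes left out (0.0392). The pseudogene Cyp2d37-ps differed by 0.33 ± 0.12 (SE, limma adjusted p = 0.121). The 10 Cyp2d genes, relatives of the human drug-metabolising CYP2D6, had differences from -0.07 to 0.34 with a median of 0.09, and none was called. None of 6 Cyp2j genes, whose products make epoxides of arachidonic acid, was called either, and their median was 0.03. Cyp2e1, the ethanol-oxidising P450 of liver, read 3.31, 3.24 and 3.30 in vitamin C and 3.34, 3.34 and 3.36 in untreated cells, dim values that did not overlap although they differed by only -0.06. Cyp2r1, a vitamin D 25-hydroxylase, differed by 0.08 ± 0.16 (SE, limma adjusted p = 0.802). Cyp2u1, a fatty acid hydroxylase, differed by 0.15 ± 0.08 (SE, limma adjusted p = 0.241). Both Cyp2a genes and the lone members Cyp2ab1, Cyp2f2, Cyp2g1, Cyp2t4 and Cyp2w1 also lacked a call, with differences from -0.19 (Cyp2t4) to 0.09 (Cyp2w1). Cyp2j6 was among the 6 members with the highest means and differed by -0.11 ± 0.13 (SE).

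In family 1, Cyp1b1 rose and its relatives did not pass. CYP1B1 oxidises oestrogens, retinol and polycyclic hydrocarbons and is known from tissues outside the liver, whereas CYP1A1 is the classical inducible target of AHR and CYP1A2 a liver enzyme. The upstream stretch of Cyp1b1 at chr17:79715062-79715311 (minus strand, GRCm38.p6, RefSeq) is shown as the CpG-rich one among the genes that rose, with 12 CpG in capitals.
Cyp1b1: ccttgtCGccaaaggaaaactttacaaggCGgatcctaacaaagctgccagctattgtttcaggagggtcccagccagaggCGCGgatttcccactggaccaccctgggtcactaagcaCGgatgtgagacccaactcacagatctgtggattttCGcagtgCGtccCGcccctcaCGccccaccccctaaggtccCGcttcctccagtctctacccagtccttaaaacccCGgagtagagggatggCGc
Cyp1b1 read 5.44, 5.20 and 5.22 in the vitamin C arrays and 4.39, 4.56 and 4.20 in the untreated arrays. The groups did not overlap, and the vitamin C replicates lay closer together than the gap between the groups. The difference was 0.90 ± 0.11 (SE, limma adjusted p = 0.00306), 1.87-fold, and it stayed between 0.81 and 0.99 with 1 array left out. Cyp1a1 read 4.18, 4.18 and 3.73 against 3.98, 4.17 and 4.04 in untreated cells. These overlap, and the difference of -0.04 had a 95% interval from -0.34 to 0.27. Cyp1a2 differed by 0.16, with an interval from -0.25 to 0.58. Of 7 measured AHR targets outside the P450 genes, 1 rose, none fell and 6 did not pass, with a median of 0.11. The called share was 14.3%, where 13.2% of all genes were called. The one that rose was Nqo1, a quinone reductase that NRF2 also controls, by 0.26 ± 0.07 (SE, limma adjusted p = 0.0436). Beside Cyp1b1, 8 of 19 fibroblast markers rose as given above, and their part in its difference was not tested.

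None of the 6 Cyp3a genes passed. Members of this subfamily clear many drugs and steroids in liver and gut. All 6 had means under the lower quartile, from 1.96 to 3.69, and differences from -0.14 to 0.17. Cyp3a13, known from mouse intestine, read 3.21, 3.00 and 3.47 in vitamin C and 3.14, 3.31 and 3.19 in untreated cells, with a difference of 0.01 and an interval from -0.27 to 0.29.

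Family 4 enzymes hydroxylate the ends of fatty acids and eicosanoids. In Cyp4a, 1 of 5 genes passed. Cyp4a12b read 4.26, 4.50 and 4.82 in vitamin C and 3.58, 3.75 and 3.64 in untreated cells. The vitamin C values spread over more than the untreated ones but did not reach down to them. Its difference was 0.87 ± 0.14 (SE, limma adjusted p = 0.00757), 1.83-fold, between 0.72 and 1.00 with 1 array left out, and the call was lost without moderation (adjusted p = 0.0659). Its close copy Cyp4a12a, a 20-HETE-forming enzyme of mouse kidney, read 3.51, 3.40 and 3.71 against 3.08, 3.22 and 3.41 in untreated cells. These values overlap, and the difference was 0.30 ± 0.11 (SE, limma adjusted p = 0.123). A probe for one such copy may also bind the other's transcript, which leaves both values uncertain. Cyp4a10 and Cyp4a14, which PPARα activators induce in mouse liver, differed by 0.26 and 0.19, with no call, and Cyp4a31 differed by -0.32. Cyp4b1, a fatty acid and xenobiotic hydroxylase of lung, differed by 0.17 ± 0.07 and Cyp4x1 by 0.16 ± 0.10 (SE), also without a call. In Cyp4f, whose products inactivate leukotriene B4 and hydroxylate other lipids, none of 9 genes passed and the median was 0.08. Cyp4f13 and Cyp4f16 had the highest means of all members. Cyp4f13 read 7.02, 7.26 and 7.45 in vitamin C and 7.37, 7.51 and 7.67 in untreated cells, and Cyp4f16 read 6.93, 6.88 and 7.11 against 7.06, 7.26 and 7.24. Both pairs of groups overlap, with differences of -0.27 ± 0.12 and -0.21 ± 0.09 (SE, limma adjusted p = 0.196 and 0.160). Cyp4f14 differed by 0.11 ± 0.11 (SE), and Cyp4f40 by 0.19 ± 0.07 (SE, limma adjusted p = 0.105), while the pseudogene Cyp4f41-ps differed by 0.09.

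None of the members that rose lay directly beside another such member among measured genes. Cyp2b9 and Cyp2b23, however, are consecutive P450 genes of their cluster. Members lay on 10 chromosomes, 13 each on chromosomes 4, 7 and 19. In the Cyp2 cluster of chromosome 7, running in gene order from Cyp2s1 to Cyp2t4, 2 of 11 members rose, 1 fell and 8 did not pass, and the members that changed were not adjacent to each other. Between Cyp2b9 and Cyp2b23 lie 4 measured genes that are not P450 genes, of which Nlrp4a, a member of the NLRP family of oocytes, fell by 0.61 and Nlrp9c, Nlrp9a and Vmn1r185 did not pass. The measured gene on the other side of Cyp2b23 is Cyp2b19, given above. In the chromosome 19 cluster, Cyp2c55 is the outermost P450 gene. Next to it lie Cyp2c65, with a difference of 0.03, and Hells, a chromatin remodeller needed for DNA methylation, with a difference of 0.04. Both lacked a call. In the Cyp4a cluster of chromosome 4, Cyp4a12b was the 1 called gene of 7. Of the 3 measured genes on either side of Cyp1b1, 2 were called. Rmdn2, the next measured gene on one side, rose by 0.45 (limma adjusted p = 0.0151) and Cdc42ep3, the third, by 0.47 (limma adjusted p = 0.00866), whereas Gm10494 between them differed by 0.11 without a call. Hnrnpll, Galm and Gemin6 on the other side differed by -0.14, -0.06 and -0.03, also without a call. None of the 10 Cyp2d genes on chromosome 15 and none of the 8 Cyp4f genes in their chromosome 17 cluster was called.

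**Figure D4:**
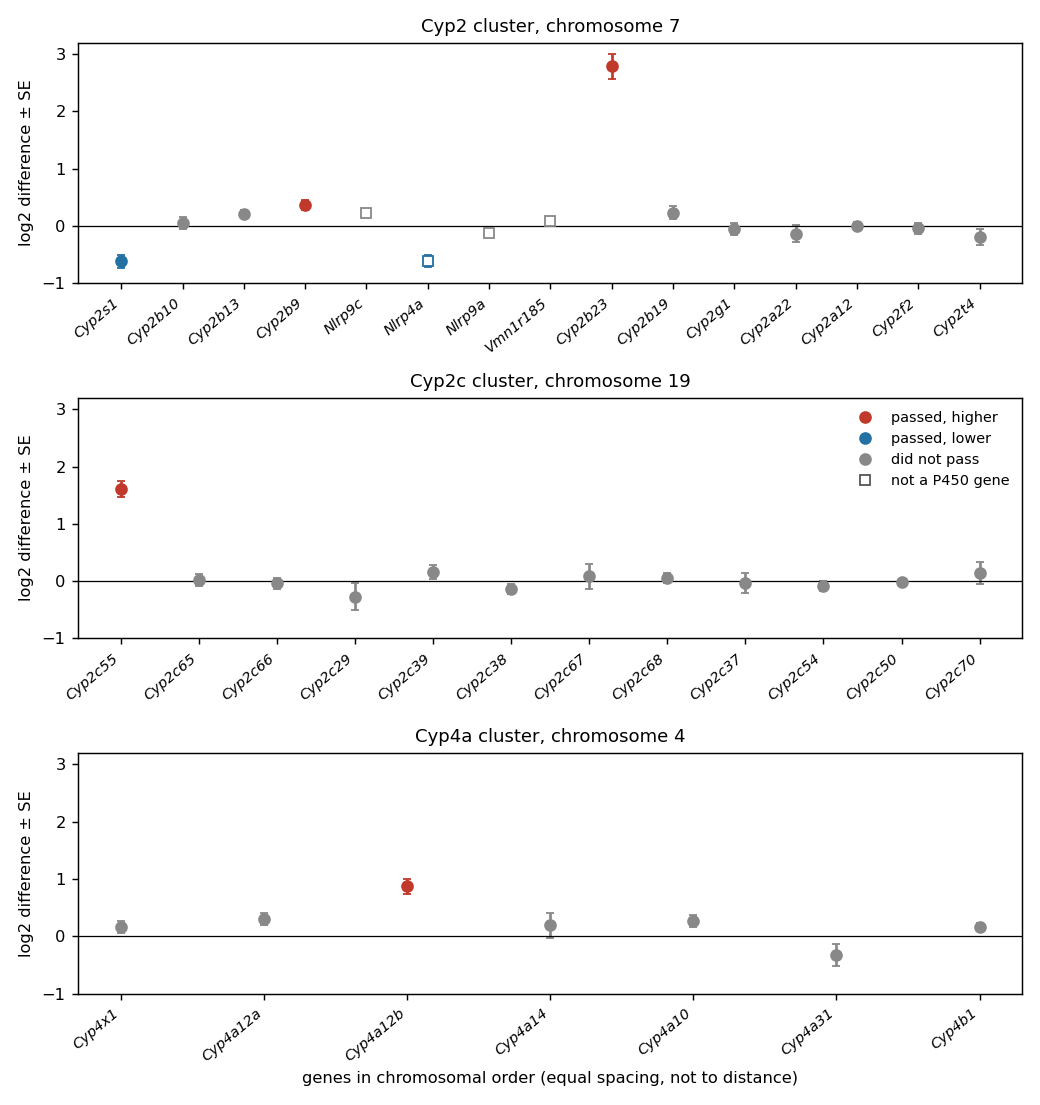
Log2 difference, vitamin C minus untreated, ± SE (y axis) for measured genes in chromosomal order, evenly spaced, in the P450 clusters of chromosomes 7, 19 and 4. Filled circles are P450 genes and open squares other genes. Single genes stand out (Cyp2b23 at 2.79, Cyp2c55 at 1.60, Cyp4a12b at 0.87), and the P450 genes directly beside them did not pass. Cyp2b9, the nearest P450 gene to Cyp2b23 across the open squares, passed at 0.36.

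Promoters of these genes are poor in CpG. RefSeq windows of 300 bases (GRCm38.p6) were matched for 54 of the 70 genes, and for genes with several windows the one listed first was used. The median was 2 CpG per window, against 15 over 15614 measured genes with a window, and 48 of the 54 (88.9%) had at most 5, against 28.1% of all. The 885 genes of the whole table that rose and had a window had a median of 17. Of the 6 members that passed, Cyp4a12b was not analysed here for its promoter. Of the other 5, Cyp2s1 had 17 CpG, Cyp1b1 16, Cyp2b9 3, Cyp2b23 2 and Cyp2c55 0. Cyp2r1 had the most, 22, and differed by 0.08. Rises of members were thus measured at both CpG-poor and CpG-rich windows. Methylation itself was not measured on these arrays. Motifs were searched on both strands. GCGTG, the core of the AHR element, was in 13 of the 54 windows (24.1%), against 41.0% of all windows. ACGTG, the core of the HIF element, which shares its last 4 letters with the AHR core, was in 2 (3.7%), against 21.7% of all. Both cores contain a CpG, of which the windows of members hold fewer. The shares were not compared at like CpG counts. The hexamer TATAAA, which positions the start of transcription in many tissue-specific promoters, was in 21 (38.9%), against 12.1% of all. The window of Cyp1b1 held 1 match to GCGTG and that of Cyp2c55 1 match to TATAAA, while those of Cyp2b23, Cyp2b9 and Cyp2s1 held no match to these 3 motifs.

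**Figure D5:**
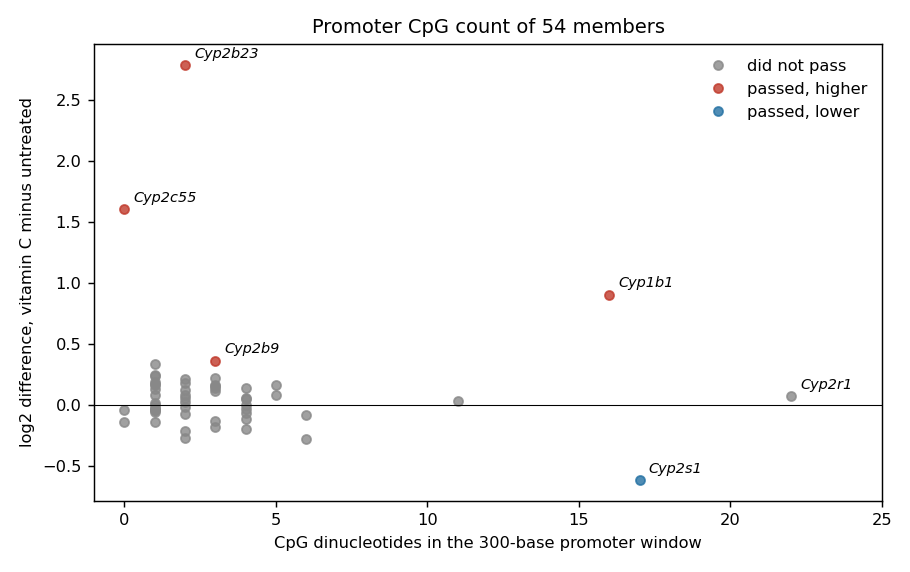
Number of CpG dinucleotides in the 300-base promoter window (x axis) against the log2 difference, vitamin C minus untreated (y axis), for the 54 P450 genes with a window. Most genes lie at 5 CpG or fewer, and Cyp2b23 with 2 and Cyp1b1 with 16 both lie above 0.

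Genes that serve or control these enzymes were also measured. Of 24 redox partners and heme enzymes listed, 21 were measured, and Por, the P450 reductase gene, was not among these 21. Means were above the median of all probe sets for 20 of them. Of the 21, 2 rose, 3 fell and 16 did not pass, with a median difference of -0.05. The called share was 23.8%, where 13.2% of all genes and 19.1% of genes above the median were called. The heme-binding partner gene Pgrmc1 rose by 0.46 ± 0.07 and Alad, of heme synthesis, by 0.34 ± 0.07 (SE). Cyb5a (cytochrome b5) fell by 0.25 ± 0.06, Cyb5r3 (its reductase) by 0.30 ± 0.07 and Blvrb (biliverdin reductase) by 0.46 ± 0.07 (SE, limma adjusted p = 0.00612). Of 28 xenobiotic sensors and liver regulators, 3 rose, 2 fell and 23 did not pass, with a median difference of 0.06 and 17.9% called. Arnt, the partner of both AHR and HIF, fell by 0.29 ± 0.06 (SE, limma adjusted p = 0.0203). The glucocorticoid receptor gene Nr3c1 rose by 0.38 ± 0.07, Ppard by 0.31 ± 0.06 and Rxrg by 0.25 ± 0.07, while the liver factor gene Foxa3 fell by 0.44 ± 0.11 (SE). Ahr differed by -0.10 ± 0.09 and Ahrr, its repressor, by -0.01 ± 0.10. The CAR gene Nr1i3 differed by 0.03 ± 0.08, the PXR gene Nr1i2 by -0.03 ± 0.11 and Hnf4a by -0.06 ± 0.08 (SE), none with a call.

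P450 genes outside families 1 to 4, which make and break down steroids, bile acids, prostanoids and retinoids, gave no rise that passed. Of 19 measured, 2 fell and 17 did not pass, with a median of 0.10 and 10.5% called, where 13.2% of all genes were. Ptgis, prostacyclin synthase, read 6.48, 6.40 and 6.48 in vitamin C and 7.20, 7.37 and 7.37 in untreated cells, and fell by 0.86 ± 0.07 (SE, limma adjusted p = 0.000658). Cyp39a1, an oxysterol hydroxylase, fell by 0.32 ± 0.08 (SE, limma adjusted p = 0.0489). Cyp51, of cholesterol synthesis, differed by 0.24 ± 0.07 (SE, limma adjusted p = 0.0516). The largest difference above 0 was that of Cyp8b1, 0.38 ± 0.10 (SE, limma adjusted p = 0.0511). Of the 19 differences, 15 were above 0, where 52.8% of all genes were. Whether these genes and families 1 to 4 differ in how often they respond was not tested.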

How the data were processed

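RNA was measured on 6 Affymetrix arrays, 3 per group. Per the submitters' processing notes the values come from RMA, which in general corrects background, quantile-normalizes arrays and summarises probes. The log2 scale of the deposited values was inferred from their range. The software and probe-set level were not given in the sources used here. Quantile normalization would hide a change shared by all genes.

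Of 35557 probe sets, the platform's annotation names 1 gene for 21789, several genes for 1621 and no gene for 12147. For 999 genes with several probe sets the one with the highest mean was used, leaving 19938 genes. No filter on low values was applied, so all 70 members were tested. Groups came from titles. limma 3.58.1 in R 4.3.3 (lmFit, eBayes, default settings, no covariate) compared vitamin C with untreated, with Benjamini-Hochberg adjustment over all genes and calls under 0.05. The fit was tested on simulated data. Means are ± SD, and differences ± the moderated SE. The number of arrays limits the precision.

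The members, gene lists and motifs were chosen with earlier results of these data known. Named members were all called ones, those not overlapping by 1.5-fold or more, the 6 with the highest means, the 3 nearest outside the threshold and set ones (Cyp1a1, Cyp1b1, Cyp2b10, Cyp2b23, Cyp2e1, Cyp2r1, Cyp2s1, Cyp2u1, Cyp3a13, Cyp4f14). List genes named were up to 4 called per list and set ones. Others were chosen after their values were seen. Gene order and names are from RefSeq GRCm38.p6, and promoter sequences from its tables. Alternatives changed the spread model, centring, dim filter, probe-set choice, array weights, replicate block and arrays included. Figures used matplotlib 3.10.9.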

Additional observations from a re-analysis of the deposited data

How the results depend on the processing

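Of 260 values of 19 named members under other settings, 246 stayed on their side of the threshold, 11 lost a call and 3 gained one (all Cyp2d40). No call changed sign, but some differences without a call did, among them those of Cyp1a1 and Cyp2b10. Cyp2b23, Cyp2c55 and Cyp1b1 passed under all 14 settings tried. The count of called members was 6 and became 3 without moderation, where Cyp2b9, Cyp2s1 and Cyp4a12b were lost, and 5 or 6 with 1 array left out. Over all genes the count of 2623 became 4151 with the trended and robust spread model, 1545 without moderation, and 1483 to 1721 with 1 array left out, from fits with fewer arrays. Centring arrays on their median left 37 of the 70 differences above 0, in place of 43. With dim genes left out 32 members were tested, Cyp2b9 not among them, and 6 were called, 18.8% of members against 18.6% of all genes. The cause of these shifts was not tested.

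Replicate numbers are shared by the groups, and no pairing is stated. Deviations of same-numbered arrays from their group means correlated at 0.05, 0.01 and -0.02, and those of differently numbered arrays at -0.07 to 0.05. Such values cannot settle whether same-numbered arrays were handled together. With the replicate block 1723 genes and 5 members were called, and Cyp2b9 was lost at an adjusted p of 0.0503.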

Other observations

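Other enzymes of foreign-compound metabolism were measured as well. Of 34 measured genes of drug metabolism outside the P450 families, 3 rose, 3 fell and 28 did not pass, so that 17.6% were called where 13.2% of all genes were. Nat2 and Nat1, genes of arylamine N-acetyltransferases, rose. Nat2 read 6.25, 5.94 and 6.08 in vitamin C and 5.25, 5.25 and 5.29 in untreated cells, a rise of 0.83 ± 0.09 (SE, limma adjusted p = 0.00177), and Nat1 rose by 0.81 ± 0.15 (SE, limma adjusted p = 0.0145). The aldehyde oxidase gene Aox3 rose by 0.62 ± 0.09 (SE, limma adjusted p = 0.00695). The sulfotransferase gene Sult2b1 fell by 0.39 ± 0.08, the thiopurine methyltransferase gene Tpmt by 0.36 ± 0.09 and the aldehyde dehydrogenase gene Aldh2 by 0.26 ± 0.07 (SE).

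Among 17 measured enzymes that release or turn over arachidonic acid and its epoxides, 2 rose, 1 fell and 14 did not pass, which again is 17.6% called. The phospholipase gene Pla2g4a, which frees arachidonic acid from membranes, read 5.67, 4.95 and 5.47 in vitamin C and 4.43, 4.64 and 4.67 in untreated cells, a rise of 0.78 ± 0.18 (SE, limma adjusted p = 0.0277). The 5-lipoxygenase gene Alox5 rose by 0.41 ± 0.09 and the soluble epoxide hydrolase gene Ephx2 fell by 0.32 ± 0.06 (SE).

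In addition, 7 probe sets name several genes of which at least 1 is a P450 of families 1 to 4, and they were left out of the members. None was called when all probe sets were tested with limma, and none had an unadjusted p under 0.05. The largest difference among them was 0.14 ± 0.10 (SE), for the probe set shared by Cyp2a5 and Cyp2a4, with 4.21, 4.11 and 4.01 in vitamin C and 3.92, 4.14 and 3.87 in untreated cells. The probe set shared by Cyp4v3 and Klkb1 differed by -0.02 ± 0.10 (SE).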
